A study of Mus musculus with 8 samples.

Results

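The matrix proteases of the ADAMTS and MMP families, the protease-like ADAMTSL proteins and the TIMP inhibitors were followed in the embryonic mouse heart. Members were taken by symbol alone: every Adamts, Adamtsl, Mmp or Timp1 to Timp4 symbol in the count table, with the row of largest total kept for each. This gave 51 genes of 22869 symbols, made up of 19 ADAMTS, 5 ADAMTSL, 23 MMP and 4 TIMP genes. 36 of the 51 had enough reads to be tested and 15 did not.

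RNA was sequenced from atrioventricular (AV) cushions, the swellings that form valves and septa, and from ventricles of C57BL/6 embryos at E12.5. Both tissues were taken from wild type and from mutant hearts, with 2 libraries for each of the 4 groups. Mutants carried the genotype label NfatC1+/-; KLF2fl/fl, with both Klf2 alleles floxed. The label leaves unstated if +/- marks a lost Nfatc1 copy or a recombinase inserted at Nfatc1, so the mutants may also differ in Nfatc1. Controls were labelled wild type, although the series' design text gives KLF2 fl/fl as the other genotype. Klf2 encodes a flow-responsive transcription factor of endothelial cells, and Nfatc1 is a gene of the endocardium, and each dissected tissue also held other cells. In such tissue, fewer cells of a type and less RNA per cell cannot be told apart. No label ties the libraries of a group to separate embryos, and the spread that the p-values rest on may therefore be technical.

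Cushions are swellings of hyaluronan-rich matrix, with versican as a main proteoglycan, that is remodelled into thin valve leaflets. MMPs cleave collagens, gelatin and other matrix proteins. ADAMTS enzymes include the proteoglycanases that cut versican and aggrecan and the procollagen N-proteinases. ADAMTSL proteins share the ancillary domains of ADAMTS enzymes but have no protease domain, and several bind fibrillin microfibrils. TIMPs bind and block MMPs, and Timp3 also blocks some ADAMTS enzymes. In mouse endocardium, KLF2 and KLF4 are known to lie upstream of Adamts4 and Adamts5 when the CCM complex, which restrains them, is lost.

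With 1 row kept per symbol, library totals lay between 18955733 and 26579215 counts. Over all deposited rows they lay between 26562828 and 37694738. 1 CPM, a count per 1e+06 counts after scaling, stood for 18.71 to 25.27 reads. Klf2 was measured at 17.3 and 12.9 CPM in wild type cushions against 1.96 and 0.651 CPM in mutant cushions. In ventricles it was at 11.7 and 9.19 CPM in wild type and at 0.736 and 0.625 CPM in mutants. The log2 fold change of Klf2 was -3.54 ± 0.42 (SE) in cushion and -3.93 ± 0.45 in ventricle, with adjusted p of 0.145 and 0.269 by edgeR. With the replicate number as a block the adjusted p in cushion was 2.86e-05. Summed levels of 10 cushion mesenchyme markers were between 4981 and 7976 CPM in the 4 cushion libraries and between 713 and 1548 CPM in the 4 ventricle libraries. Summed levels of 12 cardiomyocyte markers were between 32100 and 48810 CPM in cushions and between 47572 and 105185 CPM in ventricles, so the cushion dissections also held muscle RNA.

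The promoters of 4 members are shown because the tissue results turn on the first 3 and the tests of tissue by genotype start from the fourth. Adamtsl2, Adamts20 and Mmp11 passed the test in both genotypes, cushion over ventricle, whichever library was left out. Mmp15 had the smallest p among members for a genotype difference between tissues, without passing. Each window runs from 250 bases before to 50 bases after the gene's start in RefSeq, build GRCm38.p6, 5′ to 3′ on the gene's strand. Capitals mark CACCC or its reverse complement GGGTG, the core of the sequences bound by KLF factors, searched on both strands.
Adamtsl2, chr2:27079129-27079428, plus strand: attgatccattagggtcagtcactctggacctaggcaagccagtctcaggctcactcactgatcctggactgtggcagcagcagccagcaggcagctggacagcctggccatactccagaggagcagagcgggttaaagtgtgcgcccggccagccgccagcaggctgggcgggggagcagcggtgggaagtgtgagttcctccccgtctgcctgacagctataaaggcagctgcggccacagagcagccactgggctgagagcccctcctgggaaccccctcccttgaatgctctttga
Adamts20, chr15:94404301-94404600, minus strand: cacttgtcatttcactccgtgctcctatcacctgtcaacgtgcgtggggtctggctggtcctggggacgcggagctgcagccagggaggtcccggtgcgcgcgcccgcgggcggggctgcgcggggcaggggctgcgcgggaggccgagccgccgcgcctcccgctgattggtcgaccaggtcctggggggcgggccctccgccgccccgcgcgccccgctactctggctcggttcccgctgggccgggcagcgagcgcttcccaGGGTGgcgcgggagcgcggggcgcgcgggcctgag
Mmp11, chr10:75932453-75932752, minus strand: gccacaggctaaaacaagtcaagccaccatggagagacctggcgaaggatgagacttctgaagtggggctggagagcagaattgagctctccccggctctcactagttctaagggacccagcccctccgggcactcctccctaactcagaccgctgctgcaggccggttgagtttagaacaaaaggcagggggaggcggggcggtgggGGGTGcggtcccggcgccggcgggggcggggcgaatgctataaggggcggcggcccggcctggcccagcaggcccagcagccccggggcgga
Mmp15, chr8:95352046-95352345, plus strand: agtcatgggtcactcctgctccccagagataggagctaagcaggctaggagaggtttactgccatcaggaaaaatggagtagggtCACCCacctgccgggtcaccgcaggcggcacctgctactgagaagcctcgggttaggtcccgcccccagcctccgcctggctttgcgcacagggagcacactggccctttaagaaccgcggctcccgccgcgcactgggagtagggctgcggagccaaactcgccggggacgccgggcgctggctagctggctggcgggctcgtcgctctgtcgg
The Adamtsl2 window held 0 matches, and the Adamts20, Mmp11 and Mmp15 windows held 1 each, starting at positions 15, -42 and -165 from the gene's start. GC content of these windows was 62.3%, 77.3%, 67% and 66%, in that order, against a median of 52.7% over 32851 RefSeq windows. A match occurred in 57.5% of those windows and in 19 of the 23 tested members with a window (82.6%). The motif is short and GC-rich, and a match describes letters, not a bound site.

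The weakest tested members overlapped in level with those not tested. Mmp25 was at 0.0868 to 0.695 CPM, and Adamts18 at 0.0893 to 1.18 CPM. 15 members did not pass the filter on low counts, and the highest among them reached 9 reads in a library, or 0.402 CPM. They were Adamts13, the von Willebrand factor protease, Adamts16, Timp4 and 12 MMPs: Mmp1a, Mmp1b, Mmp3, Mmp7, Mmp8, Mmp9, Mmp10, Mmp12, Mmp13, Mmp20, Mmp21 and Mmp27. 5 of the 15 had 0 reads in every library. 10 of these MMPs are adjacent coding genes on chromosome 9 in the RefSeq annotation, a cluster of collagenases, stromelysins and relatives, and together they had 38 reads over the 8 libraries. Of the 13 MMP genes outside that cluster, 11 were tested. Mmp8 and Mmp9, known as MMPs of neutrophils, were among the genes not tested, and summed neutrophil markers were between 0.589 and 4.49 CPM.

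**Figure D1:**
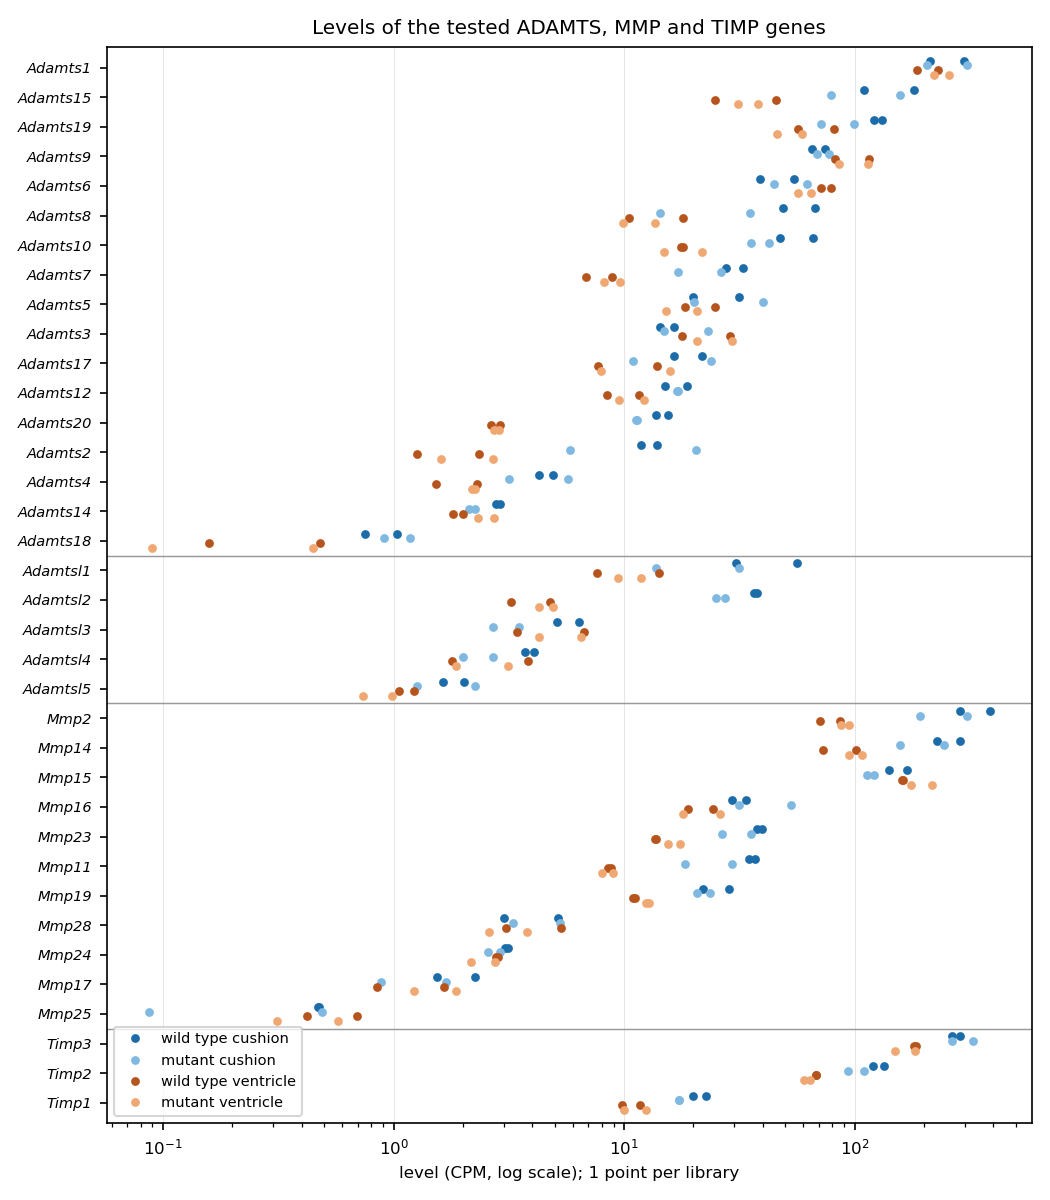
Level of each of the 36 tested members in CPM (log scale), with 1 point per library and colours for the 4 groups. Genes are sorted within the ADAMTS, ADAMTSL, MMP and TIMP families, and dark blue points (wild type cushion) lie to the right of the brown points (wild type ventricle) for 25 of the 36.

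Levels were compared between genes per kilobase of the longest transcript (RPKM), since read counts scale with length. In wild type cushions Mmp2, the gelatinase, led with 109 ± 23.2 RPKM (SD, n = 2), followed by Mmp14, the membrane-anchored MMP that activates it, with 79.6 ± 13.1 RPKM. Their library ranges did not overlap, at 92.8 to 126 RPKM for Mmp2 and 70.4 to 88.9 RPKM for Mmp14. Timp3 (58.5 ± 3.33 RPKM) and the versican-cleaving Adamts1 (52.5 ± 12.6 RPKM) came next and overlapped each other, and Timp2 (34.2 ± 2.66 RPKM) and Mmp15 (30.2 ± 3.83 RPKM) also overlapped. In wild type ventricles the order was different, led by Adamts1 (42.6 ± 6.29 RPKM) and Timp3 (38.7 ± 0.54 RPKM), which overlapped. There, Mmp15, a membrane-type MMP, had 31.3 ± 0.16 RPKM, Mmp14 27.0 ± 6.22 RPKM and Mmp2 25.5 ± 3.504 RPKM, and each of these overlapped its neighbour in the order. In mutant cushions Mmp2 led with 81.1 ± 26.9 RPKM and overlapped Timp3 (62.3 ± 9.23 RPKM) and Mmp14 (62.1 ± 18.9 RPKM). In mutant ventricles Adamts1 (49.0 ± 5.11 RPKM) lay above Mmp15 (38.0 ± 5.60 RPKM) in both libraries.

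Summed over each family, the MMP level per length was 302 and 254 RPKM in wild type cushions, 255 and 175 RPKM in mutant cushions, and between 99.0 and 125 RPKM in the 4 ventricle libraries. The ADAMTS sum was 189 and 149 RPKM in wild type cushions, 168 and 118 RPKM in mutant cushions and between 92.2 and 120.3 RPKM in ventricles, so the lower mutant cushion lay within the ventricle range. TIMP sums were between 105.0 and 119 RPKM in all 4 cushion libraries and between 62.2 and 70.6 RPKM in all 4 ventricle libraries. ADAMTSL sums were the lowest, at 15.5 and 12.4 RPKM in wild type cushions, 10.2 and 7.25 RPKM in mutant cushions and between 2.69 and 4.79 RPKM in ventricles. Together the 51 members took 0.251% and 0.233% of reads in wild type cushions, 0.221% and 0.177% in mutant cushions, and between 0.117% and 0.129% in ventricles.

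**Figure D2:**
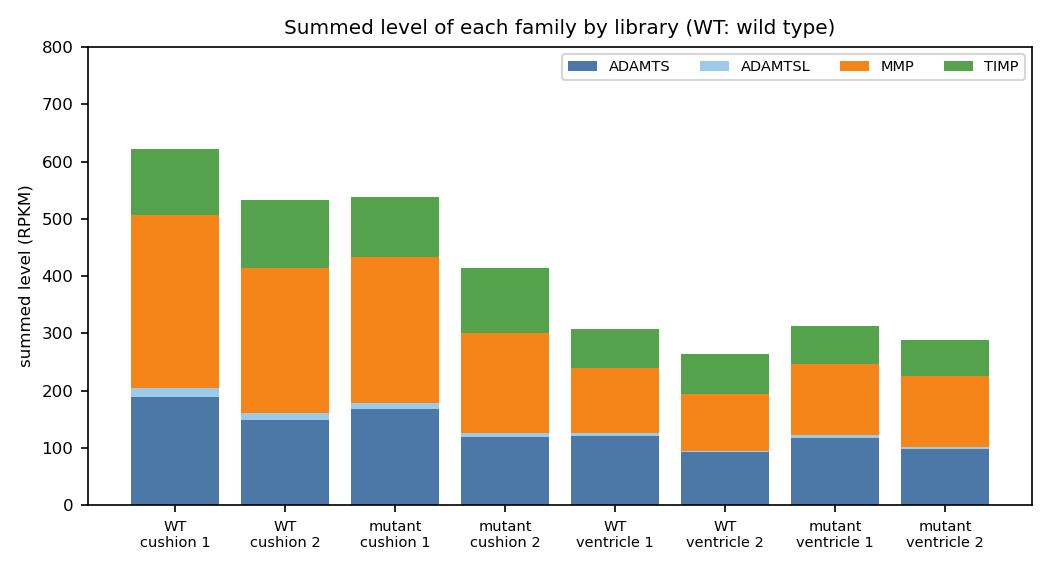
Summed level of each family per library, in CPM per kilobase of transcript (RPKM), stacked from ADAMTS at the bottom to TIMP at the top. The wild type cushion bars reach 621 and 533 RPKM, the mutant cushion bars 538 and 415 RPKM, and the ventricle bars 265 to 313 RPKM.

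The first comparison asked which proteases and inhibitors distinguish the valve-forming cushion from the ventricle in wild type embryos. 19 of 36 tested members were higher in cushion and 1, Adamts6, was lower, at adjusted p under 0.05 by edgeR. Over all 14940 tested symbols 23.1% passed, 12.46% higher and 10.6% lower. The median log2 fold change was 0.85 over the members and 0.01 over all symbols. By family, 9 of 17 ADAMTS, 2 of 5 ADAMTSL, 5 of 11 MMP and 3 of 3 tested TIMP genes were higher. The same libraries had 7 of 10 mesenchyme markers higher and 4 of 12 cardiomyocyte markers lower in cushion, and the part of this cell mixture in the members' differences was not tested.

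Among inhibitors, Timp1 measured 20.0 and 22.6 CPM in wild type cushions against 9.78 and 11.7 CPM in ventricles, and was higher in cushion by 0.99 ± 0.18 on the log2 scale (adjusted p = 0.00684). Timp2, which besides inhibition takes part in the activation of Mmp2 by Mmp14, measured 134 and 120.0 CPM in cushions against 67.8 and 67.8 CPM in ventricles (log2 fold change 0.90 ± 0.13, adjusted p = 0.003). With a correction for transcript GC content and length it was 0.59 ± 0.12 (adjusted p = 0.011). Timp3, the matrix-bound inhibitor, measured 265 and 287 CPM in cushions against 181 and 184 CPM in ventricles (0.60 ± 0.16, adjusted p = 0.0272). For these 3 inhibitors the cushion and ventricle libraries did not overlap. Timp4 was between 0.0528 and 0.321 CPM in all 8 libraries and was not tested. Without any single wild type library the adjusted p of Timp3 lay between 0.0836 and 0.141. Timp1 and Timp3 lie inside the synapsin genes Syn1 and Syn3 on the opposite strand, whose own levels did not exceed 2.32 and 7.23 CPM.

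Among MMPs, Mmp2 measured 387 and 286 CPM in wild type cushions against 86.1 and 70.8 CPM in ventricles, a log2 fold change of 2.10 ± 0.25 (adjusted p = 0.00167). Mmp11, also called stromelysin 3, measured 36.9 and 34.9 CPM in cushions against 8.82 and 8.55 CPM in ventricles (2.04 ± 0.22, adjusted p = 0.000966). In both, the lower cushion library was more than 3 times the higher ventricle library. Mmp14 (1.56 ± 0.25, adjusted p = 0.00482), Mmp23 (1.501 ± 0.17, adjusted p = 0.0012) and Mmp19 (1.19 ± 0.17, adjusted p = 0.00297) were also higher in cushion. Mmp15 measured 141 and 169 CPM in cushions against 162 and 160.4 CPM in ventricles, which overlapped (-0.05 ± 0.15, adjusted p = 0.822, 95% interval of the difference -0.40 to 0.29). With a spline correction for transcript GC content and length it was lower in cushion (-0.68 ± 0.16, adjusted p = 0.0205). Mmp14 lost its call without wild type ventricle replicate 2 (adjusted p = 0.0562). Mmp11 overlaps the mitochondrial gene Chchd10 on the opposite strand, which reached 75.0 CPM and was higher in ventricle libraries than in wild type cushions.

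Enzymes known to cleave matrix proteoglycans differed among themselves. Adamts20 measured 15.5 and 13.7 CPM in wild type cushions against 2.89 and 2.64 CPM in ventricles (2.40 ± 0.19, adjusted p = 0.000409). Its deposited rows differed in total, the smallest holding 33.2% of the largest. Adamts15 measured 181 and 110.2 CPM in cushions against 45.6 and 24.9 CPM in ventricles (2.04 ± 0.46, adjusted p = 0.0261). Adamts8, its neighbour on chromosome 9, measured 67.3 and 48.8 CPM against 18.0 and 10.5 CPM (2.03 ± 0.48, adjusted p = 0.0286). All 3 were separated from the ventricle libraries.

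The remaining versican-cleaving enzymes were mixed, and of those below only Adamts4 passed in the fit without block or correction. Adamts1 measured 300 and 213 CPM in wild type cushions and 230.0 and 187 CPM in ventricles, which overlapped (0.30 ± 0.23, adjusted p = 0.383). Adamts5, its neighbour on chromosome 16, measured 31.4 and 19.9 CPM in cushions and 24.7 and 18.4 CPM in ventricles, again overlapping (0.25 ± 0.37, adjusted p = 0.665). Adamts9 measured 74.6 and 65.6 CPM in cushions against 116 and 82.5 CPM in ventricles (-0.50 ± 0.20, adjusted p = 0.101), and was lower in cushion with the replicate block (-0.48 ± 0.11, adjusted p = 0.00394). Adamts4 was low in every library, at 4.93 and 4.27 CPM in cushions against 2.30 and 1.53 CPM in ventricles (1.26 ± 0.35, adjusted p = 0.0322). It did not pass with the GC and length correction (0.86 ± 0.30, adjusted p = 0.0751).

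The largest difference was in a protein without a protease domain. Adamtsl2, a binding partner of fibrillin microfibrils, measured 36.5 and 37.6 CPM in wild type cushions against 4.76 and 3.22 CPM in ventricles (3.21 ± 0.21, adjusted p = 0.000179). Adamtsl1 measured 56.1 and 30.5 CPM in cushions against 14.2 and 7.66 CPM in ventricles (1.98 ± 0.52, adjusted p = 0.0405). Adamts2, which removes the N-propeptide of fibrillar procollagens, measured 13.9 and 11.8 CPM against 2.35 and 1.27 CPM (2.83 ± 0.65, adjusted p = 0.0255). Its relatives Adamts3 (-0.59 ± 0.30, adjusted p = 0.185) and Adamts14 (0.56 ± 0.26, adjusted p = 0.149) did not pass, and Adamts14 was at -0.06 with the GC and length correction. With the replicate block Adamts3 was lower in cushion (-0.56 ± 0.15, adjusted p = 0.00896), and both its cushion libraries lay below both ventricle libraries. The fibrillin-linked Adamts10 (1.67 ± 0.22, adjusted p = 0.00243) and Adamts7 (1.95 ± 0.24, adjusted p = 0.00169) were higher in cushion. Adamts7 overlaps Tbc1d2b on the opposite strand, which was at 43.1 and 38.7 CPM in wild type cushions and 31.7 and 27.9 CPM in ventricles. Adamts19, whose loss causes heart valve disease in humans, measured 132 and 122 CPM in cushions against 81.6 and 56.9 CPM in ventricles (0.87 ± 0.22, adjusted p = 0.0266). In the fit without block or correction, Adamts6 was the only member called lower in cushion. It measured 54.5 and 38.7 CPM in cushions against 71.6 and 78.8 CPM in ventricles (-0.69 ± 0.21, adjusted p = 0.0446).

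10 of the 20 calls held whichever of the 8 libraries was left out: Adamts7, Adamts10, Adamts20, Adamtsl2, Mmp2, Mmp11, Mmp19, Mmp23, Timp1 and Timp2. Calls were lost without wild type cushion replicate 1 or 2, and without wild type ventricle replicate 2. Adamts2, Adamts4, Adamts8, Adamts12, Adamts15, Adamts19 and Adamtsl1 were among those lost there, with adjusted p between 0.0563 and 0.213 in those 3 fits. With the replicate block 22 members were higher and 3 lower, against 41.4% of all symbols (21.2% higher and 20.1% lower). Adding the GC and length correction gave 21 higher and 4 lower, against 41.5% of all symbols. In 25 members both wild type cushions lay above both ventricles, where 33.5% of all symbols did so, and in 3 members both lay below, where 31.8% did.

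**Figure D3:**
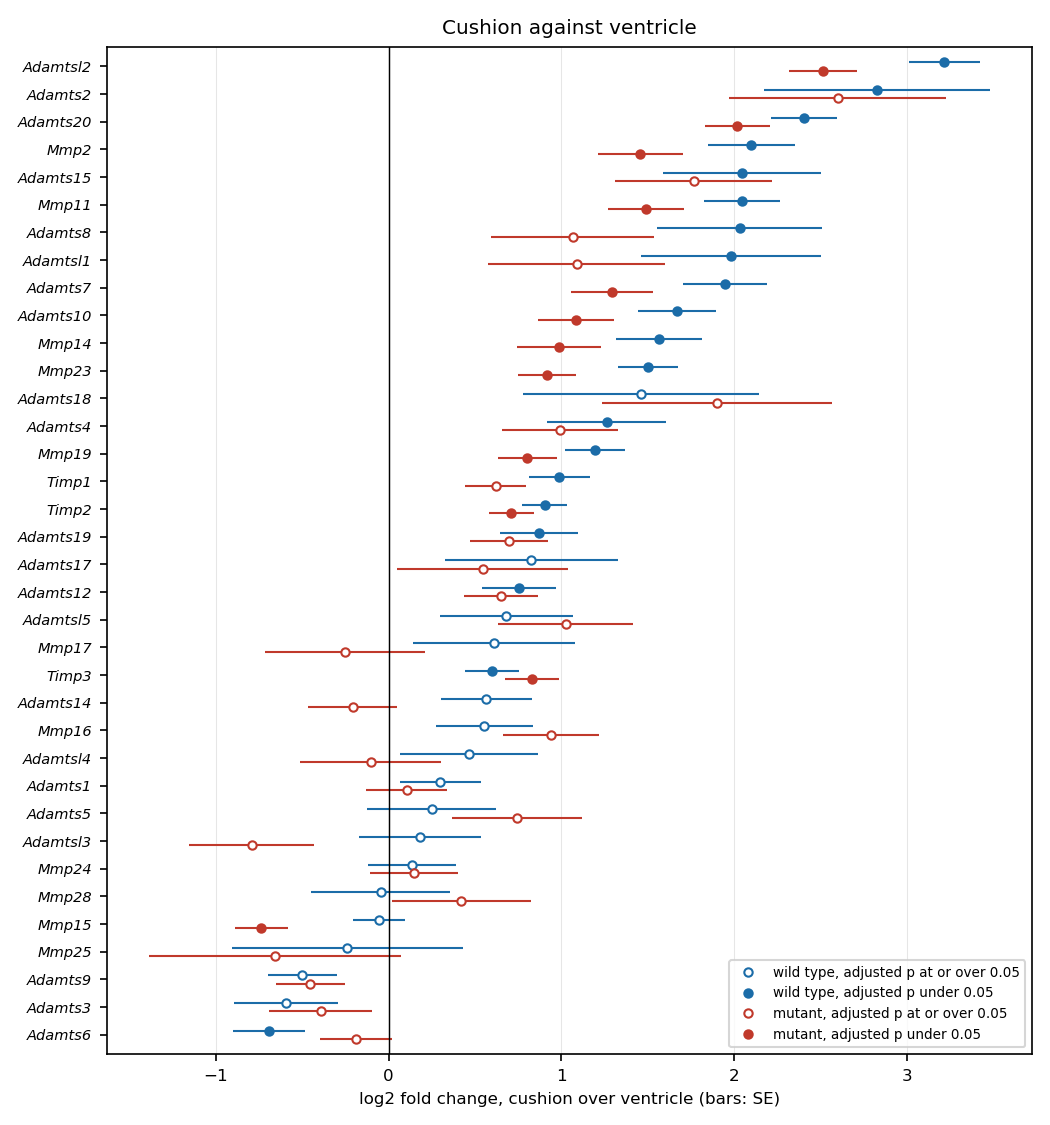
Log2 fold change of cushion over ventricle for each tested member in wild type (blue) and mutant (red) hearts, with bars of 1 SE and filled points for adjusted p under 0.05. Adamtsl2 lies farthest to the right in wild type at 3.21, and Adamts6 is the filled point on the negative side in wild type at -0.69.

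The same question was asked in mutant hearts, whose levels come from other libraries than the wild type comparison. The p-values of both comparisons rest on 1 estimate of the spread over all 8 libraries, so the 2 lists of calls are not independent. 11 of 36 members were higher in mutant cushion than in mutant ventricle and 1, Mmp15, was lower, against 9.42% of all symbols (6.16% higher and 3.26% lower). 11 of these 12 genes had also passed in wild type, which is 91.7% of the mutant list and 55% of the wild type list. Across the 36 members the fold changes of the 2 tissue comparisons had the same sign in 31, and their Pearson correlation was 0.89, against 0.788 over all tested symbols, genes of the same tissues that are not independent.

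Adamtsl2 again had the largest difference among the calls, at 27.5 and 25.1 CPM in mutant cushions against 4.90 and 4.29 CPM in mutant ventricles (2.51 ± 0.20, adjusted p = 0.00101). Adamts20 measured 11.3 and 11.4 CPM against 2.74 and 2.86 CPM (2.02 ± 0.19, adjusted p = 0.00121). Mmp11 measured 29.3 and 18.4 CPM against 8.01 and 8.97 CPM (1.49 ± 0.22, adjusted p = 0.00568). Only these 3 of the 12 calls held whichever library was left out. Those of Mmp2, Mmp14, Timp2 and Timp3 were among the calls lost without some single libraries. Mmp2 measured 308 and 191 CPM in mutant cushions against 94.9 and 87.2 CPM (1.46 ± 0.25, adjusted p = 0.011), Timp2 had a log2 fold change of 0.71 ± 0.13 (adjusted p = 0.0135) and Timp3 one of 0.83 ± 0.16 (adjusted p = 0.0151). Mmp15 measured 113 and 122 CPM in mutant cushions against 175 and 216 CPM in mutant ventricles (-0.74 ± 0.15, adjusted p = 0.0205), and its call was lost without mutant cushion replicate 1 or 2 or mutant ventricle replicate 2 (adjusted p between 0.0529 and 0.16).

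9 members called in wild type did not pass here, among them Adamts2 (20.4 and 5.82 CPM in mutant cushions, 2.60 ± 0.63, adjusted p = 0.0508), Adamts8 (1.07 ± 0.47, adjusted p = 0.227), Adamtsl1 (1.09 ± 0.51, adjusted p = 0.256) and Timp1 (0.62 ± 0.18, adjusted p = 0.0618). All 4 passed with the replicate block, under which 23 members were higher and 2 lower against 23.9% of all symbols (13.4% higher and 10.5% lower). Both mutant cushions lay above both mutant ventricles in 22 members, where 28.9% of all symbols did so, and below them in 4, where 24.2% did. Calls were lost without mutant cushion replicate 1, without mutant ventricle replicate 1 and without mutant ventricle replicate 2.

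The comparison the series is about set mutant cushions against wild type cushions. 0 of 36 members passed at adjusted p under 0.05 by edgeR, where 0% of all symbols passed, and DESeq2 and limma-voom also called 0 members. At unadjusted p under 0.05 edgeR gave 8 members, all lower in mutants, against 11.4% of all symbols (6.14% higher and 5.23% lower). With the replicate block 2 members fell, Adamts8 and Adamtsl1, against 0.863% of all symbols (0.295% higher and 0.569% lower).

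Adamts8, a member of the aggrecanase group, measured 67.3 and 48.8 CPM in wild type cushions against 35.0 and 14.4 CPM in mutant cushions. The groups did not overlap, and mutant cushion replicate 2 lay within the range of the wild type ventricles, 10.5 to 18.0 CPM. Within replicate 1 the mutant level was 0.52 times the wild type level, and within replicate 2 it was 0.295 times. The log2 fold change was -1.23 ± 0.46 (adjusted p = 0.435), and with the replicate block -1.32 ± 0.18 (adjusted p = 0.00626). With the block and the GC and length correction it was -1.01 (adjusted p = 0.005), one of the 0.509% of symbols called there. Without wild type cushion replicate 2 the blocked adjusted p was 0.0504, and without any other single library it was between 4.67e-06 and 0.0498. In ventricles Adamts8 measured 18.0 and 10.5 CPM in wild type against 13.6 and 9.91 CPM in mutants (-0.27 ± 0.48, adjusted p = 0.998), which overlapped.

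Adamtsl1 measured 56.1 and 30.5 CPM in wild type cushions against 31.6 and 13.8 CPM in mutant cushions, and the groups overlapped across replicates. Within replicate 1 the mutant level was 0.564 times the wild type level, and within replicate 2 it was 0.453 times. The log2 fold change was -0.93 ± 0.50 (adjusted p = 0.492), and with the replicate block -0.97 ± 0.17 (adjusted p = 0.0176). The call did not hold with the block and the GC and length correction (-0.72, adjusted p = 0.141), nor with the block without any single wild type library (adjusted p from 0.0502 to 0.13). In ventricles the values were 14.2 and 7.66 CPM against 11.9 and 9.42 CPM (-0.04 ± 0.52, adjusted p = 0.998).

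The 5 tested genes whose pattern over the 8 libraries was most like that of Adamts8, by Pearson correlation of log2(CPM + 1), were Iglon5 (0.987), Ptprs (0.985), Scube1 (0.983), Zfp423 (0.983) and F930015N05Rik (0.983). Scube1 measured 53.3 and 31.8 CPM in wild type cushions against 30.2 and 13.8 CPM in mutant cushions, and fell with the replicate block (adjusted p = 0.00897). Iglon5 stayed under 1 CPM in every library. The 8 points are the same libraries for all of these genes and include both tissues.

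**Figure D4:**
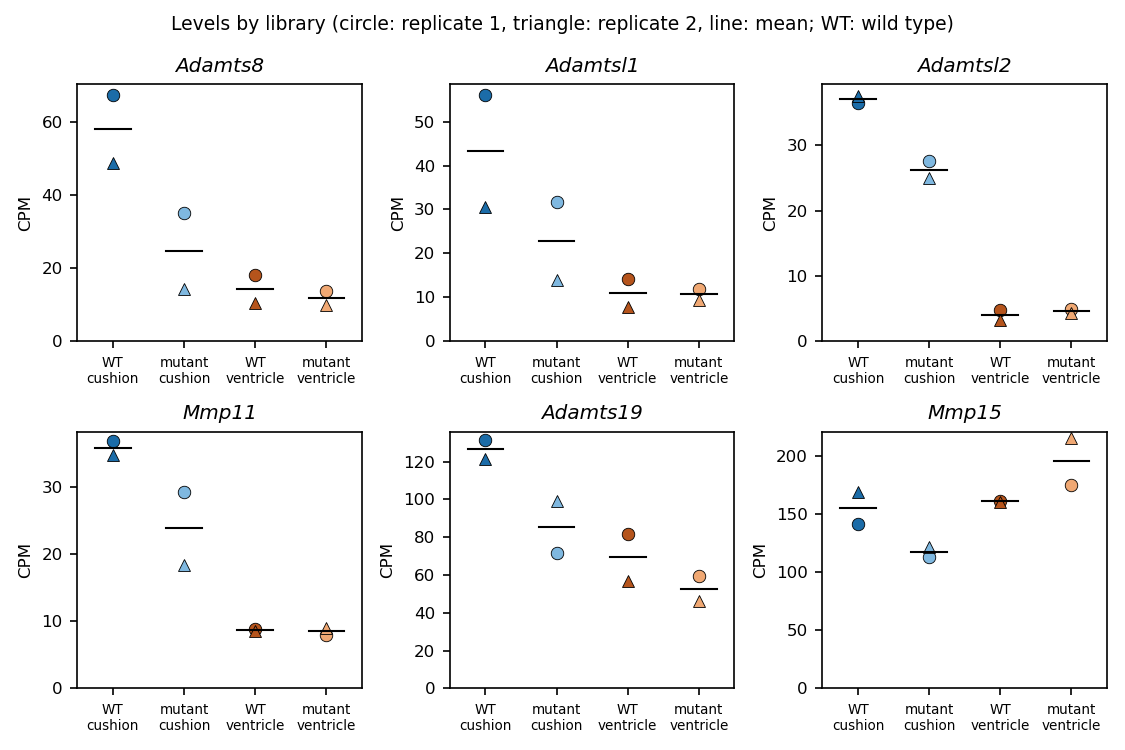
Level in CPM of 6 members in every library, with circles for replicate 1, triangles for replicate 2 and a line at the mean of each group. Adamts8 is at 67.3 and 48.8 CPM in wild type cushions and at 35.0 and 14.4 CPM in mutant cushions, while Mmp15 is lower in mutant cushions and higher in mutant ventricles than in the matching wild type libraries.

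The 4 members with the smallest p in this comparison were Mmp11, Adamtsl2, Mmp15 and Adamts19, each with adjusted p = 0.435. Mmp11 measured 36.9 and 34.9 CPM in wild type against 29.3 and 18.4 CPM in mutant cushions (-0.59 ± 0.21). Adamtsl2 measured 36.5 and 37.6 CPM against 27.5 and 25.1 CPM (-0.50 ± 0.18). Mmp15 measured 141 and 169 CPM against 113 and 122 CPM (-0.40 ± 0.15). Adamts19 measured 132 and 122 CPM against 71.5 and 99.4 CPM (-0.57 ± 0.22). In all 4 both mutant libraries lay below both wild type libraries, as they did in 23.9% of all symbols. With the replicate block their adjusted p was 0.0844, 0.0877, 0.0856 and 0.158. With the GC and length correction all 4 moved towards 0: Mmp11 was at -0.35 ± 0.19, Adamtsl2 at -0.27 ± 0.12, Adamts19 at -0.53 ± 0.19 and Mmp15 at 0.032 ± 0.16, with adjusted p between 0.822 and 0.989.

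Adamts4 and Adamts5, named above in the known KLF2 pathway, showed no detectable difference at 2 libraries a group. Nor did the versican-cleaving Adamts1 and Adamts9, which were not named in it. Adamts4 measured 4.93 and 4.27 CPM in wild type cushions and 5.69 and 3.17 CPM in mutant cushions, which overlapped (-0.06 ± 0.32, adjusted p = 0.954, 95% interval -0.79 to 0.68). Adamts5 measured 31.4 and 19.9 CPM against 40.0 and 20.1 CPM (0.23 ± 0.37, adjusted p = 0.817, 95% interval -0.64 to 1.10). Adamts1 measured 300 and 213 CPM against 308 and 207 CPM (0.01 ± 0.23, adjusted p = 0.993, 95% interval -0.53 to 0.54). Adamts9 measured 74.6 and 65.6 CPM against 77.6 and 68.6 CPM (0.06 ± 0.20, adjusted p = 0.917). For these 4 enzymes the mutant and wild type cushions overlapped.

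Mmp2 measured 387 and 286 CPM in wild type against 308 and 191 CPM in mutant cushions (-0.43 ± 0.24, adjusted p = 0.494), with overlap between the groups. Timp1 measured 20.0 and 22.6 CPM against 17.3 and 17.3 CPM (-0.30 ± 0.17, adjusted p = 0.498). Timp2 measured 134 and 120.0 CPM against 109.8 and 93.4 CPM (-0.32 ± 0.13, adjusted p = 0.435). Timp3 measured 265 and 287 CPM against 264 and 325 CPM (0.09 ± 0.16, adjusted p = 0.824). Both mutant libraries lay below both wild type libraries for Timp1 and Timp2, as they did in 23.9% of all symbols, and the Timp3 libraries overlapped. With the GC and length correction Timp1 was at -0.26 (adjusted p = 0.881) and Timp2 at -0.16 (adjusted p = 0.932).

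25 of the 36 members had a negative fold change in mutant cushions, with a median of -0.31 against -0.01 over all symbols. By family, 5 of 5 ADAMTSL, 9 of 11 MMP, 9 of 17 ADAMTS and 2 of 3 TIMP genes were negative. In 15 members both mutant libraries lay below both wild type libraries, where 23.9% of all symbols did so, and in 0 members both lay above, where 24.5% of all symbols did. In these cushions fold change moved with GC content: the Spearman correlation across genes was -0.607 over all symbols and -0.43 over the members, whose median GC content was 53.8% against 49.6%. After the block and the GC and length correction the members' median was -0.05 and 19 of 36 were negative. Without block or correction 10 of 10 mesenchyme markers were also negative, where the median over all symbols was -0.01. Corrected values of these markers are not given here. Their summed levels were 7976 and 5442 CPM in wild type against 6255 and 4981 CPM in mutant cushions, which overlapped. Summed cardiomyocyte markers were 48810 and 32100 CPM against 36226 and 35519 CPM, and summed leukocyte markers 154 and 164 CPM against 150.3 and 217 CPM. Summed endothelial and endocardial markers were 1573 and 1633 CPM against 1535 and 1861 CPM, which overlapped. Summed epicardial markers were 201 and 254 CPM against 354 and 283 CPM, higher in mutants without overlap. The part of these markers in the members' values was not tested.

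In ventricles the same genotype comparison gave 0 of 36 members at adjusted p under 0.05, with 0% of all symbols, and 0 members at unadjusted p under 0.05, where 2.29% of all symbols passed by edgeR. DESeq2 and limma-voom also called 0 members. With the replicate block 0 members passed, against 0.00669% of all symbols. The smallest p belonged to Mmp15, at 162 and 160.4 CPM in wild type against 175 and 216 CPM in mutant ventricles (0.28 ± 0.15, adjusted p = 0.998), with both mutant libraries above. Adamts19 measured 81.6 and 56.9 CPM against 59.4 and 46.1 CPM (-0.39 ± 0.22), Mmp23 measured 13.7 and 13.6 CPM against 15.5 and 17.5 CPM (0.27 ± 0.17) and Adamts14 measured 1.82 and 2.01 CPM against 2.74 and 2.32 CPM (0.40 ± 0.26). The Adamts19 libraries overlapped and those of Mmp23 and Adamts14 did not. The members' median was 0.04. In 5 members both mutant ventricles lay above both wild type ventricles, where 13.1% of all symbols did, and in 4 both lay below, where 14.6% did. Here too fold change moved with GC content, with a Spearman correlation across genes of 0.458 over all symbols and 0.23 over the members. With the GC and length correction Mmp15 was at 0.17, Adamts19 at -0.36, Mmp23 at 0.12 and Adamts14 at 0.30.

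The other members described in cushions were also read in ventricles. Adamts1 measured 230.0 and 187 CPM against 257 and 222 CPM (0.20 ± 0.23), Adamts5 24.7 and 18.4 CPM against 20.7 and 15.2 CPM (-0.26 ± 0.38) and Adamts9 116 and 82.5 CPM against 115 and 85.6 CPM (0.01 ± 0.20). Mmp2 measured 86.1 and 70.8 CPM against 94.9 and 87.2 CPM (0.22 ± 0.24). Timp1 measured 9.78 and 11.7 CPM against 10.01 and 12.502 CPM, Timp2 67.8 and 67.8 CPM against 63.8 and 60.5 CPM, and Timp3 181 and 184 CPM against 182 and 150 CPM. Each of these had adjusted p = 0.998 by edgeR. Both mutant libraries lay above both wild type libraries for Mmp2 and below them for Timp2, and the groups overlapped for the other 5 genes.

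**Figure D5:**
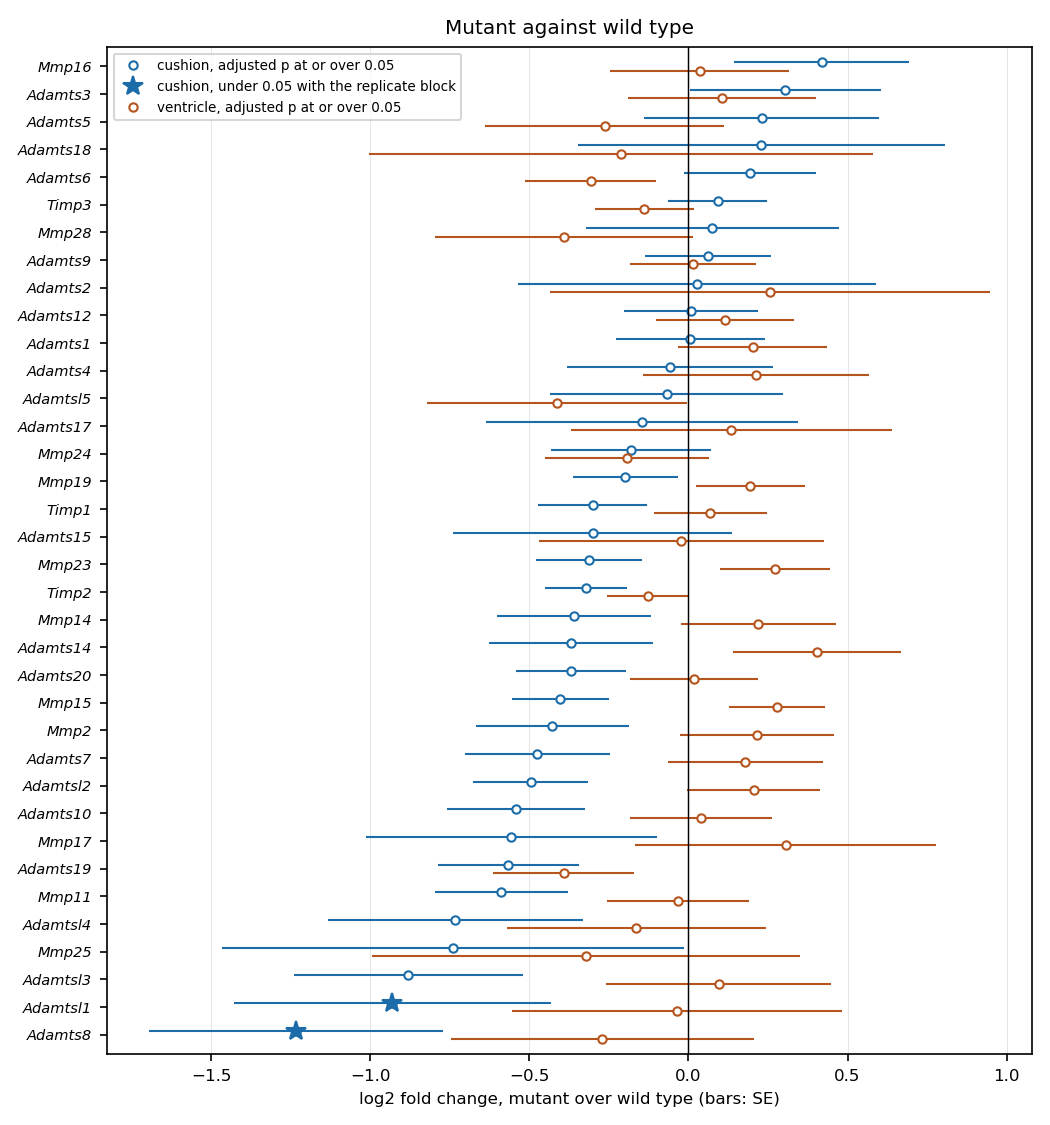
Log2 fold change of mutant over wild type for each tested member in cushion (blue) and ventricle (orange), sorted by the cushion value, with bars of 1 SE. Open points have adjusted p at or over 0.05, stars mark the 2 members that passed in cushion with the replicate block, and Adamts8 lies farthest to the left at -1.23.

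Whether the genotype difference itself differed between tissues was tested as an interaction. 0 of 36 members passed, with or without the block, where 0% of all symbols passed, and DESeq2 and limma-voom also called 0. 3 members had an unadjusted p under 0.05 by edgeR, all with the lower value in cushion, where 11.9% of all symbols passed (6.93% higher and 4.96% lower). They were Mmp15 (-0.68 ± 0.21), Adamtsl2 (-0.70 ± 0.28) and Mmp23 (-0.58 ± 0.24), each with adjusted p = 0.415, followed by Adamts14 (-0.77 ± 0.37, adjusted p = 0.428). With the GC and length correction Adamtsl2 was at -0.43 ± 0.18 (unadjusted p = 0.0462). Mmp15 was then at -0.14 ± 0.23 (unadjusted p = 0.562), Mmp23 at -0.16 ± 0.21 (0.484) and Adamts14 at -0.25 ± 0.38 (0.528). Mmp23 measured 37.6 and 39.7 CPM in wild type against 35.7 and 26.6 CPM in mutant cushions, and Adamts14 measured 2.77 and 2.89 CPM against 2.26 and 2.13 CPM. Adamts14, Mmp15 and Mmp23 were lower in both mutant cushions and higher in both mutant ventricles without overlap, as were 5.21% of all symbols. For Adamts8 the difference between tissues was -0.96 ± 0.66 (adjusted p = 0.55). With the replicate block, under which Adamts8 was called in cushion, it was -1.08 ± 0.26 (adjusted p = 0.0852). Neither passed, so the genotype effect of Adamts8 was not shown to be particular to cushion.

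The partners of these enzymes were taken from 4 lists of substrates, activators, inhibitors and related proteases. Of 18 tested activators, membrane inhibitors and clearance receptors, 11 were higher and 0 lower in wild type cushion than ventricle, against 12.46% and 10.6% of all symbols. They included the plasminogen activator Plat (0.88 ± 0.12, adjusted p = 0.0028), the protease inhibitor Serpine2 (0.93 ± 0.14, adjusted p = 0.00366) and Furin, the convertase that activates membrane-type MMPs and ADAMTS proforms (1.31 ± 0.21, adjusted p = 0.00412). Spock1 measured 1.27 and 1.86 CPM in cushions against 0.107 and 0 CPM in ventricles. 5 of 19 fibrous matrix genes were higher, among them Thbs2 (2.01 ± 0.21), Fbln1 (1.43 ± 0.15), Fbln2 (2.40 ± 0.56) and Thbs1 (2.60 ± 0.64), and with the block 15 of 19, where 21.2% of all symbols were higher.

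3 of 12 genes of the proteoglycan and hyaluronan list were higher in wild type cushion, namely the hyaluronan synthase Has2 (3.46 ± 0.68, adjusted p = 0.0196), the link protein Hapln1 (2.42 ± 0.61, adjusted p = 0.0389) and biglycan, Bgn (1.95 ± 0.50, adjusted p = 0.0399). Vcan, the versican substrate, measured 8624 and 2688 CPM in cushions against 3023 and 1058 CPM in ventricles, a log2 fold change of 1.47 ± 0.90 (adjusted p = 0.285) that passed with the replicate block (1.43 ± 0.17, adjusted p = 2.6e-05). 4 of 15 other metzincin proteases were higher: Adam23 (2.66 ± 0.30), Bmp1 (1.69 ± 0.25), Adam15 (0.75 ± 0.18) and Pappa (1.30 ± 0.36). In mutant hearts 5, 2, 2 and 1 genes of these lists were higher in cushion, in the order given, where 6.16% of all symbols were. With the replicate block these counts were 11, 12, 4 and 4, where 13.4% of all symbols were higher.

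Between mutant and wild type cushions 0 genes of the 4 lists passed. With the replicate block 7 of 64 fell and 0 rose, where 0.569% of all symbols fell and 0.295% rose. These were the clearance receptor gene Lrp1 (-0.89 ± 0.12, adjusted p = 0.00481), the matrix genes Col2a1 (-0.76 ± 0.13, adjusted p = 0.0176), Col1a1 (-0.79 ± 0.14, adjusted p = 0.0261), Fbln1 (-0.49 ± 0.11, adjusted p = 0.0488) and Fbn2 (-0.59 ± 0.13, adjusted p = 0.049), the procollagen C-proteinase Bmp1 (-0.62 ± 0.11, adjusted p = 0.0252) and Bgn (-0.59 ± 0.12, adjusted p = 0.0315). 0 of these 7 calls held with the block whichever of the 8 libraries was left out. Lrp1 held in 7 of the 8 fits (adjusted p up to 0.0904), Col2a1 in 6, Bmp1 in 4 and the other 4 genes in 3. Over the lists, fewer genes passed with the block when any single wild type library was left out, and no fewer when any single mutant library was. With the block and the GC and length correction 2 of 64 passed, against 0.509% of all symbols: Bgn (-0.55, adjusted p = 0.0431) and the protease-family gene Adam23 (-0.80, adjusted p = 0.0337). Lrp1 was then at -0.40 (adjusted p = 0.0973), and the other 5 had adjusted p between 0.142 and 0.341. Vcan measured 6223 and 2920 CPM in mutant cushions, within the wild type range (-0.31 ± 0.88, adjusted p = 0.906). In ventricles 0 genes of the 4 lists differed between genotypes, with or without the block.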

How the data were processed

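Total RNA libraries were made with a stranded kit after ribosomal RNA removal, per the labels' protocols. Bowtie 0.12.7 and build mm9 are named in the submitters' processing notes. How reads were assigned to genes, and whether by strand, is not given in the sources used here. Members that overlap a gene on the opposite strand are therefore uncertain, and 1 such overlap is not reported here. Each deposited table holds the authors' raw counts, taken as they stand. All 8 deposited tables were identical, so 7 were not read. The row of largest total was kept per symbol.

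The count test was edgeR 4.0.16 under R 4.3.3 (TMM scaling, filtering by expression, robust quasi-likelihood over all 8 libraries in 4 groups, two-sided, Benjamini-Hochberg over 14940 symbols holding 99.97% of counts, threshold 0.05). DESeq2 1.42.0 and limma-voom (limma 3.58.1) were alternatives. An SE is the size of the log2 fold change over the square root of its F statistic. CPM divides counts by the TMM-scaled total, and RPKM divides CPM by the longest GENCODE vM21 transcript in kilobases, which also gave GC content. The correction for GC content and length enters the model as an offset per gene and library. The fit, with and without the block, was also run on simulated counts with known changes in mutant cushions. Those counts held no replicate or GC effect, so they cannot show how the block or the correction handles such effects.

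Replicate numbers 1 and 2 occur in all groups, and the labels do not say what they mark. Differences of replicate 1 from replicate 2 in log2(CPM + 1) were alike in every one of the 6 pairs of groups (Pearson r across genes from 0.408 to 0.657). The numbers were therefore taken to pair the libraries, from the data and not from the labels. A blocked value is printed where it alters the call of a member whose test is given, or a count of calls by more than 1.5 times.

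The members, gene lists and tests were chosen with earlier results of these data known. Values in every library are given for the TIMPs, Adamts1, Adamts5, Adamts9, Mmp2, up to 8 tissue calls in each direction, genotype calls with or without the block and the 4 smallest p per genotype comparison and interaction. Adamts4 and Vcan fall outside that rule and were added after their values were seen. Of each list up to 4 symbols with the smallest p are named, and all that passed with the block in cushions. Counts near low totals carry counting error, and the members' fewest reads are in the genes that were not tested.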

Additional observations from a re-analysis of the deposited data

How the results depend on the processing

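With 2 libraries a group, calls rest on single libraries. The alternatives were the block, GC and length correction, DESeq2, limma-voom, another scaling, no filter, summed rows, fewer groups and single libraries left out. They were counted for a set of members picked per comparison. In wild type tissue these were up to 8 calls in each direction and the tested TIMPs, and in mutant tissue all calls. In the genotype comparisons and interaction they were the 4 smallest p and any calls with or without the block. Of 946 values in this set, 859 kept their direction and side of the threshold, 63 lost a call, 22 gained one and 2 reversed. Both reversals in this set were Mmp15 in mutant against wild type cushion, at -0.40 without block or correction. It was at 0.032 with the GC and length correction (adjusted p = 0.989) and 0.022 with that and the block (adjusted p = 0.938). Members outside the set for a comparison were not counted there. With the GC and length correction, Adamts4 went from -0.06 to 0.18 in mutant against wild type cushion. Adamts14 went from 0.56 to -0.06 in wild type cushion against ventricle. Calls among the 36 members in wild type cushion against ventricle, 20, were 10 to 19 with a library left out and 19 to 26 with the block as well. The 12 calls in mutant cushion against ventricle were 25 with the replicate block, 24 with the block and the GC and length correction, 5 with the compared groups alone, 4 to 15 with a library left out, and 19 to 25 with the block as well (19 without mutant ventricle replicate 1, 21 without mutant ventricle replicate 2). The 0 calls in mutant against wild type cushion became 2 with the replicate block and 1 with the block and correction, and 0 to 8 with the block and a library left out, with 3 calls without mutant ventricle replicate 2. In the interaction, 0 calls became 0 to 9 with a library left out, 9 without mutant cushion replicate 1 and 6 without mutant ventricle replicate 1, both with the block. In ventricles 0 genotype calls were made under every alternative run. The block changed no genotype call other than those of Adamts8 and Adamtsl1 among the members. Members near or under 1 CPM rest on few reads, and differences in them are hard to detect at this depth. Adamts18, at 0.0893 to 1.18 CPM, passed only with the replicate block. Its adjusted p by edgeR was then 0.0425 in the wild type tissue comparison and 0.0154 in the mutant one. The causes of these changes were not tested, other than that leaving out libraries reduces the samples.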
